A study of Caenorhabditis elegans with 6 samples.

Results

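Among the genes counted in whole adult Caenorhabditis elegans of 3 strains, 5 were chosen by their shifts between the transgenic strains and N2: unc-119, ZC317.7, Y38E10A.14, C08E8.3 and wdfy-3. The read counts in the 6 libraries were the values that selected them, so every difference between strains given for these 5 is a description and carries no test. They are 5 of the 46748 genes listed in the deposited table. N2 is the laboratory wild-type strain and carries no transgene. The strain called WT (OD1463) carries the deletion csr-1(tm892) of an Argonaute gene on both chromosomes and is also homozygous for its pair of transgenes. The strain called SIN (OD1175) is homozygous for the same deletion and also for a pair of transgenes. From what is known of the study, the WT transgene encodes the normal CSR-1 protein and SIN a slicing-inactive form. The labels give neither the promoters of the transgenes nor any unc-119 allele, and each transgenic genotype is a single strain. The WT and SIN adults were sorted by movement from the offspring of balanced heterozygous mothers. There were 2 libraries per strain, each from 100 gravid adults kept at 20 °C.

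UNC-119 is a chaperone that binds lipid-modified proteins and, in neurons with cilia, carries them to the ciliary membrane together with the small GTPases ARL-3 and ARL-13. Worms that lack it move poorly, and for that reason restoring unc-119 is a common way to recognise worms that have taken up a transgene. The wdfy-3 gene encodes a very large protein with BEACH, WD40 and FYVE domains. Its mammalian relative WDFY3, also called ALFY, is a scaffold of selective autophagy. ZC317.7, Y38E10A.14 and C08E8.3 are protein-coding genes for which the table and the annotation used here give no name beyond the sequence identifier, and no role is assigned to them here. CSR-1 itself is loaded with 22G RNAs, small RNAs of the germline that pair with messenger RNAs.

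The libraries held 33739391 to 44962816 counted reads. In the check of the targeted gene, csr-1 was at 445.5 and 476 CPM (counted reads scaled to a common library size with TMM) in N2, 662 and 636 in WT and 2913 and 3308 in SIN, with reads from the transgene and from the chromosomal gene counted together. Across all 15404 genes tested with edgeR's quasi-likelihood test at a Benjamini-Hochberg adjusted p below 0.05, 17 genes were called in WT versus N2, or 0.11%. The shares were 25.6% in SIN versus N2 and 25.5% in SIN versus WT. Rises made up 48.2% and 47.7% of these calls, and 59.6% and 65.5% with upper-quartile scaling. Of the 5 genes, 4 were called in WT versus N2 (all but unc-119), 3 in SIN versus N2 (unc-119, ZC317.7 and Y38E10A.14) and 4 in SIN versus WT (all but unc-119), counts that selection on these contrasts makes uninformative. The number called in WT versus N2 ran from 0 without any one of the WT or SIN libraries to 643 without N2 replicate 1 and 4201 without N2 replicate 2. The labels do not say whether the libraries of a strain came from separate cultures, so the errors below may be technical. In RNA from whole worms, fewer cells of a type cannot be told apart from less RNA per cell.

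All 5 genes passed the filter on low counts, with 4 to 3557 reads per library. C08E8.3 passed it only through its level in WT: in a fit of N2 and SIN alone it was filtered out. The 5 genes lie on 4 chromosomes (WBcel235, Ensembl annotation). The gene unc-119 spans 10902641 to 10908935 on chromosome III, plus strand, with 3 annotated transcripts. ZC317.7 spans 5468645 to 5471030 on chromosome V, minus strand, and C08E8.3 lies on the other strand of the same chromosome at 18350129 to 18350559. Y38E10A.14 spans 12623110 to 12624533 on chromosome II, minus strand. The wdfy-3 gene spans 12653401 to 12674769 on chromosome IV, plus strand, with 36 blocks of exons and 4 transcripts. Only wdfy-3 shared annotated bases with other genes: the noncoding VT23B5.1 on the opposite strand, which had 0 reads in all libraries, and, over 36 bases, C26H9A.4 on the same strand, for which no counts were used here.

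The gene unc-119 was lower in both transgenic strains, to the same level in each. N2 had 18 and 15.6 CPM, WT had 7.92 and 8.41 CPM, and SIN had 7.86 and 8.2 CPM. Every transgenic library was below both N2 libraries, and the WT and SIN libraries interleaved. The means were 16.8 ± 1.7 CPM in N2, 8.17 ± 0.34 CPM in WT and 8.03 ± 0.24 CPM in SIN (SD, n = 2 each). The log2 fold change was -1.04 ± 0.16 (SE) for WT versus N2 and -1.07 ± 0.16 for SIN versus N2. Between the transgenic strains it was -0.02 ± 0.16, close to no difference but with an error that leaves room for a small one. N2 contributed 1465 reads of unc-119, WT 598 and SIN 623, so the ratio of scaled reads of SIN to WT was 0.986 with a 95% exact counting interval of 0.88 to 1.1, which covers counting error only. Both transgenic strains had reads assigned to unc-119, at 0.482 (WT) and 0.475 (SIN) of the N2 share of reads.

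ZC317.7 was higher in both transgenic strains, and higher in SIN than in WT. It had 3.01 and 2.05 CPM in N2, with 13.2 and 13.7 in WT and 25.9 and 21.2 in SIN. The 3 strains did not overlap and stood in the order N2, WT, SIN. Its log2 fold change was 2.41 ± 0.23 (SE) in WT versus N2, 3.21 ± 0.24 in SIN versus N2 and 0.81 ± 0.22 in SIN versus WT. The N2 mean was 2.53 ± 0.67 CPM (SD, n = 2), against 13.5 ± 0.35 in WT and 23.6 ± 3.3 in SIN. By length, the authors' deposited RPKM went from 1.34 in N2 to 6.93 in WT and 13 in SIN.

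Y38E10A.14 was far higher in WT than in N2 and moderately higher in SIN. N2 had 8.58 and 6.8 CPM, WT had 60.7 and 61.5 CPM, and SIN had 17.9 and 15.2 CPM. Again no strain overlapped another, but here the order was N2, SIN, WT. The log2 fold change was 2.99 ± 0.17 (SE) in WT versus N2, a 7.94-fold difference, against 1.11 ± 0.16 in SIN versus N2, a 2.15-fold difference. WT exceeded SIN by 3.69-fold. With 4488 reads in WT, 672 in N2 and 1296 in SIN, counting error is small beside these differences. In the authors' deposited RPKM the gene was at 10 in N2, 77.5 in WT and 22.6 in SIN, which placed it at rank 6742, 1649 and 4936 of the 15404 tested genes by level.

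C08E8.3 had few reads in N2 and SIN and was higher in WT. Its reads numbered 4 and 6 in the N2 libraries, 111 and 105 in the WT libraries, and 11 and 5 in the SIN libraries. On the CPM scale these were 0.0865 and 0.148 in N2, 2.71 and 3.22 in WT, and 0.263 and 0.14 in SIN. The WT libraries stood far above the other 4, while the N2 and SIN libraries overlapped. The ratio of scaled reads of WT to N2 was 25.5, with a counting interval of 13.6 to 53.9. The ratio of SIN to N2 was 1.79 with an interval of 0.762 to 4.4, so these depths neither show nor exclude a difference of that size between SIN and N2. The fitted log2 fold changes were 4.64 ± 0.47 (SE) for WT versus N2 and 0.79 ± 0.52 for SIN versus N2.

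The wdfy-3 transcript was lower in WT, with SIN between WT and N2. N2 had 76.9 and 55.6 CPM, WT had 21.4 and 19.5 CPM, and SIN had 46.7 and 45.8 CPM. No strain overlapped another, though the lower N2 library was only 1.19-fold above the higher SIN library. The log2 fold change was -1.7 ± 0.17 (SE) in WT versus N2, a 3.24-fold difference, and -0.52 ± 0.16 in SIN versus N2, a 1.43-fold difference. SIN exceeded WT by 2.26-fold. The SIN difference leaned on which N2 library was used: the log2 fold change was -0.28 without N2 replicate 1 and -0.74 without N2 replicate 2, whereas WT versus N2 stayed between -1.9 and -1.44 in the same fits.

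**Figure D1:**
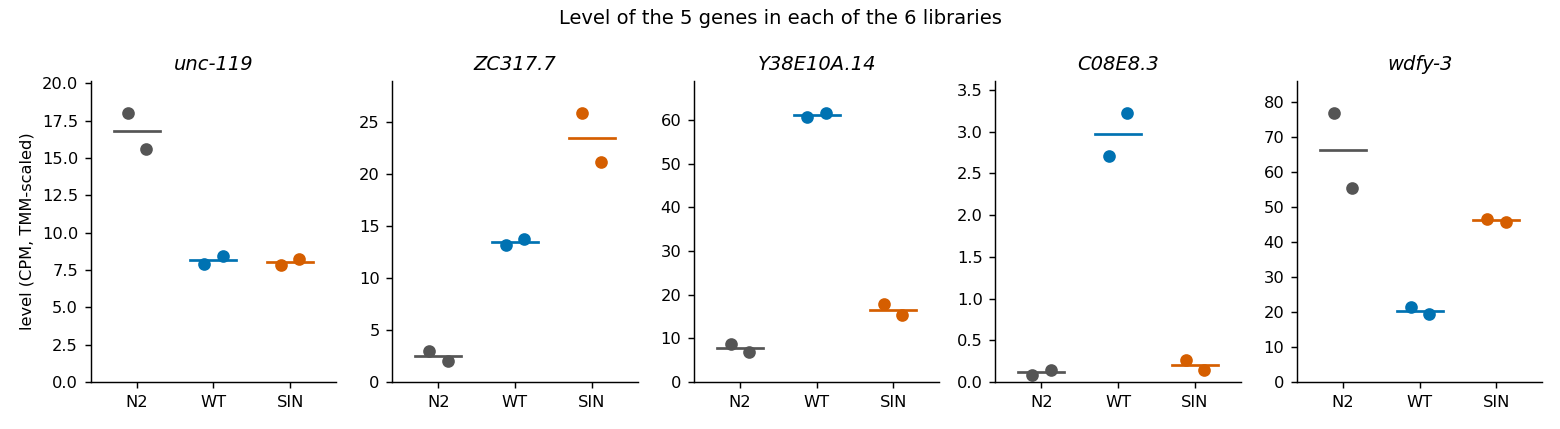
Level of each of the 5 genes in CPM (TMM-scaled, linear axes from 0, a scale of its own in each panel). Points are the 2 libraries of each strain and lines are their means. In unc-119 the WT and SIN points lie together below N2. In ZC317.7 both lie above N2. In Y38E10A.14 and C08E8.3 WT stands highest. In wdfy-3 WT stands lowest.

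Set side by side, the shifts of WT and SIN from N2 had different relations in the 5 genes. These comparisons share the N2 libraries, so an error in N2 enters both. As a share of the WT difference on the log2 scale, the SIN difference was 102% for unc-119 and 133% for ZC317.7, the pair for which the shift from N2 was seen in full in both transgenic strains. It was 37% for Y38E10A.14, 30.6% for wdfy-3 and 17.1% for C08E8.3, for which most of the shift was in WT. The authors' deposited table gives log2 fold changes of SIN over WT of -0.03 for unc-119, 0.74 for ZC317.7, -1.8 for Y38E10A.14, -2.54 for C08E8.3 and 1.1 for wdfy-3. The value for C08E8.3 there is smaller than the -3.84 ± 0.45 (SE) of the fit used here, and the other 4 differ from this fit by less than its SE. Whether the deposited fold changes were shrunken is not stated in the sources.

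**Figure D2:**
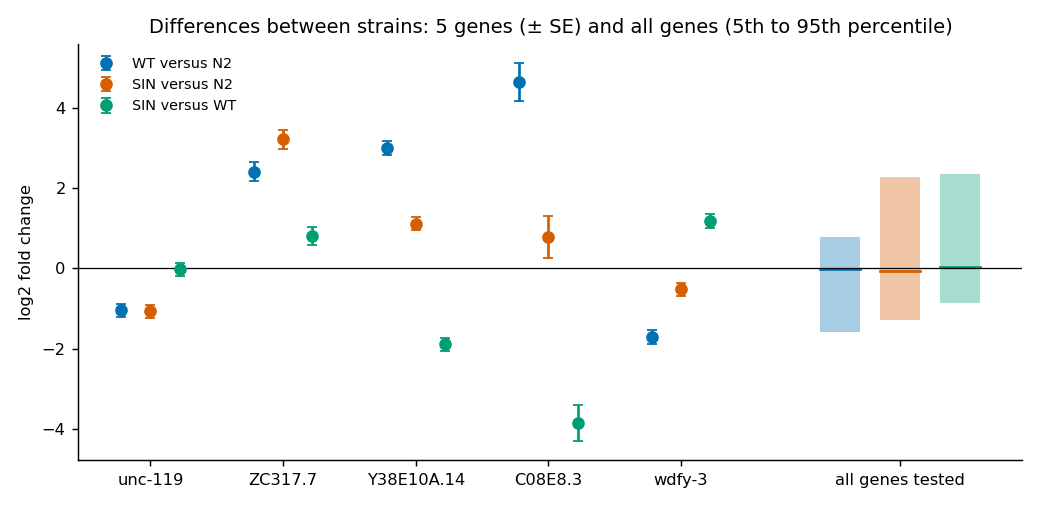
Log2 fold change of the 5 genes in WT versus N2, SIN versus N2 and SIN versus WT (points, with bars of ± 1 SE from the fit of all 6 libraries). Shaded boxes at the right span the 5th to 95th percentile of all 15404 genes tested, -1.58 to 0.79 in WT versus N2, with the median as a line. C08E8.3, Y38E10A.14 and ZC317.7 lie above the box of WT versus N2 and wdfy-3 below it, while unc-119 lies inside both boxes of comparisons with N2.

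How common each arrangement of libraries was among all genes was counted with a gap of at least 1.5-fold between every library of the one side and every library of the other, on log2 CPM with a prior count of 2. The gap was set after the values had been seen. The genes of this report were chosen by their shifts in the same counts, so their places among all genes are a description only. Every N2 library exceeded every WT and SIN library by that gap in 251 of 15404 genes (1.63%), unc-119 among them with a gap of 1.85-fold. The opposite arrangement, with both transgenic strains above N2, held in 167 genes (1.08%), including ZC317.7 and Y38E10A.14. ZC317.7 had the widest gap of all in that arrangement, 4.35-fold, and Y38E10A.14 a gap of 1.77-fold.

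Separation of WT from N2 and SIN together was more often downward than upward. WT lay below the other 4 libraries in 391 genes (2.54%), including wdfy-3 with a gap of 2.14-fold. WT lay above them in 57 genes (0.37%), including C08E8.3 and Y38E10A.14. In that group C08E8.3, which passed the low-count filter only through WT, had the widest gap, 8.82-fold. Y38E10A.14 ranked 3 with 3.38-fold. Selection on these counts makes both places uninformative. Y38E10A.14 was the only one of the 5 with 2 arrangements, being above N2 in both transgenic strains and above SIN in WT. With a 2-fold gap, also chosen after seeing the data, the counts became 64, 51, 132 and 9 in the order given, and unc-119 fell outside its group and Y38E10A.14 outside the group with both strains above N2. Without N2 replicate 2 the counts were 1379, 722, 851 and 155, and wdfy-3 entered the group with both transgenic strains below N2. Without N2 replicate 1 they were 574, 466, 555 and 85. Leaving out WT replicate 1 gave 354, 520, 773 and 126, and leaving out WT replicate 2 gave 310, 227, 798 and 94. Without SIN replicate 2, C08E8.3 entered the group with both strains above N2.

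The deposited annotations, which do not come from these libraries, divided the 5 genes. ZC317.7 and Y38E10A.14 are in the deposited classes of germline-expressed and germline-enriched genes, and neither is in the germline-specific class. unc-119, C08E8.3 and wdfy-3 are in none of the 3 classes. ZC317.7 is the only one of the 5 listed in both deposited sets of 22G RNAs. Its score for 22G reads from the study by Claycomb was 52, below the median of 97.8 and at rank 3189 of 4133 listed genes. In the CSR-1 immunoprecipitate from the study by Conine, ZC317.7 had 36.9 RPM (22G reads scaled to the total), at the median of the 5517 listed genes, with 5.37 RPM in the input. The wdfy-3 gene had 8.45 RPM in the immunoprecipitate, rank 5169 of 5517, and 3.81 RPM in the input. Its deposited enrichment score, the share of the immunoprecipitate in the sum of both, was 0.689, near the lowest listed value of 0.667, against 0.873 for ZC317.7. Y38E10A.14, C08E8.3 and unc-119 are in neither set of 22G RNAs. Most genes are not, since the sets list 4133 and 5517 of the 46748 genes.

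The genes around each of the 5 were examined to see whether a shift extended beyond the gene. For each, the 3 nearest tested genes on either side were taken, 30 in all. In WT versus N2, edgeR called none of the 30, against 0.11% of all genes. DESeq2 called 3 of them as higher and 1 as lower there, and 1164 of its 12618 genes in either direction. With edgeR, 9 of the 30 had an unadjusted p below 0.05, as had 3091 of all 15404 genes tested. In SIN versus N2, 7 rose and 1 fell, against 25.6% of all genes called in either direction, and in SIN versus WT 9 rose and 2 fell, against 25.5%. These counts changed with the library left out, in WT versus N2 when either N2 library was left out, and the cause was not tested. In SIN versus WT, leaving out any one WT or SIN library left 1 that rose and none that fell, and leaving out either N2 library gave 12 that rose and 7 that fell. In SIN versus N2, without SIN replicate 1 or 2 there were 3 or 2 that rose and none that fell, without either WT library 5 and none, and without N2 replicate 1 there were 10 and 5.

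None of the 6 neighbours of unc-119 was called by edgeR in WT versus N2 (0 had an unadjusted p below 0.05). Their median log2 fold change there was -1.03, against -1.04 for unc-119 itself, and it was 0.36 in SIN versus N2, where unc-119 was lower. The neighbours with many reads and those with few differed. The meiotic DNA repair gene com-1, which ends 805 bases before unc-119, had 64 and 61.7 CPM in N2, with 67.6 and 64.8 in WT and 76.3 and 66.2 in SIN, and was not called in any comparison. The gene athp-1, 8945 bases away, had log2 fold changes of -0.01 in WT versus N2 and 0.04 in SIN versus N2. The other 4 had few reads. In WT versus N2 the log2 fold change was -0.87 for fbxb-87, 6385 bases away, -1.42 for cut-6, 2525 bases away, -1.2 for vab-7 and -1.41 for M142.3. The N2 libraries differed widely for cut-6, at 2.16 and 0.272 CPM, with 0.538 and 0.368 CPM in WT. The homeobox gene vab-7 rose in SIN versus WT (log2 fold change 2.15, edgeR adjusted p = 0.0354), at 0.269 to 1.55 CPM across all libraries. The pseudogene M142.3 rose in SIN over N2 (2.04, edgeR adjusted p = 0.0399) and over WT (3.45, edgeR adjusted p = 0.0138), at 0.0733 to 0.0921 CPM in WT and 0.726 CPM or more in SIN.

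Around ZC317.7 several genes were also higher in SIN. ZC317.6 lies 56 bases beyond the 3′ end of ZC317.7 on the same strand. It had 0.0432 and 0.0495 CPM in N2, with 0.245 and 0.246 in WT and 0.669 and 0.837 in SIN, the same order of strains as ZC317.7 at a level far below it. ZC317.6 rose in SIN over N2 (log2 fold change 3.94, edgeR adjusted p = 0.00488) and over WT (1.61, edgeR adjusted p = 0.0396). The chemoreceptor family gene srg-65, 11980 bases away, rose in SIN over N2 (3.05, edgeR adjusted p = 0.0307), at 0.0216 to 0.669 CPM. The gene snpc-1.3, 29477 bases away, encodes a factor for the transcription of piRNAs of the male germline. It rose from 1.45 and 1.41 CPM in N2 to 60.2 and 43.6 CPM in SIN (5.18, edgeR adjusted p = 7.5e-05), with 3.72 and 3.16 CPM in WT. F08F3.1, grl-18 and T05C3.6, which also lie within that span, were not called in any comparison. Whether reads of ZC317.7 extended into ZC317.6 was not tested.

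Y38E10A.14 sits inside a cluster of nspe genes, a family of short nematode-specific peptides. The 5 nearest tested nspe genes varied between the N2 libraries. For nspe-7, 2654 bases away on the opposite strand, N2 had 0.648 and 6.55 CPM, WT 23.3 and 22.7 CPM and SIN 4.02 and 2.23 CPM. WT was thus the highest strain for nspe-7, as for Y38E10A.14, while its N2 libraries lay on either side of the SIN libraries, and it was not called. In nspe-1, nspe-2 and nspe-5, the WT libraries lay between the N2 libraries. WT was also the highest strain for nspe-8 and Y38E10A.28. The level of nspe-8 was 0 and 0.0989 CPM in N2, with 0.44 and 0.276 in WT and 0.0239 and 0 in SIN, and it fell in SIN versus WT (log2 fold change -4.51, edgeR adjusted p = 0.0492). Y38E10A.28, 5154 bases away, had 1.58 and 1.73 CPM in N2, with 3.5 and 4.11 in WT and 2.34 and 1.48 in SIN (log2 fold change 1.2 in WT versus N2, edgeR adjusted p = 0.142). None of the 6 neighbours of Y38E10A.14 was called in WT versus N2 or SIN versus N2.

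None of the neighbours of C08E8.3 was called by edgeR in WT versus N2. The highest log2 fold change among them there was 0.3, for C08E8.10. C08E8.10, 10222 bases away, had 2.14 and 3.39 CPM in N2, with 3.72 and 3.07 in WT and 3.18 and 3.1 in SIN. B0462.5 and the pseudogene B0462.1 were lowest in WT and rose in SIN over WT (log2 fold changes 4.06 and 3.38, edgeR adjusted p = 0.00952 and 0.0392). Y51A2B.4 had no read in N2 or WT and 0.621 and 0.307 CPM in SIN (edgeR adjusted p = 0.023 against N2 and 0.0253 against WT). Y51A2B.5 rose in SIN over N2 and over WT (3.49 and 4.66, edgeR adjusted p = 0.0234 and 0.0171), from at most 0.0495 CPM in either to 0.43 and 0.419 CPM.

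Beside wdfy-3, the neighbours vha-7 and prmt-3 were not called in any comparison. The proton pump subunit gene vha-7, 2749 bases before it on the same strand, had 168 and 152 CPM in N2, with 169 and 164 in WT and 178 and 165 in SIN. The gene prmt-3, 2629 bases after it, had a log2 fold change of -0.12 in WT versus N2 and -0.12 in SIN versus N2. T23B5.4 starts 231 bases after wdfy-3 on the same strand, and was highest where wdfy-3 was lowest: 10.8 and 11.3 CPM in N2, with 13.8 and 14.9 in WT and 7.98 and 6.75 in SIN. It fell in SIN versus N2 (-0.58, edgeR adjusted p = 0.0469) and in SIN versus WT (-0.96, edgeR adjusted p = 0.0119). The gene efa-6, an exchange factor for an Arf GTPase, rose in SIN over N2 (0.81, edgeR adjusted p = 0.00182) and over WT (0.54, edgeR adjusted p = 0.00808).

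**Figure D3:**
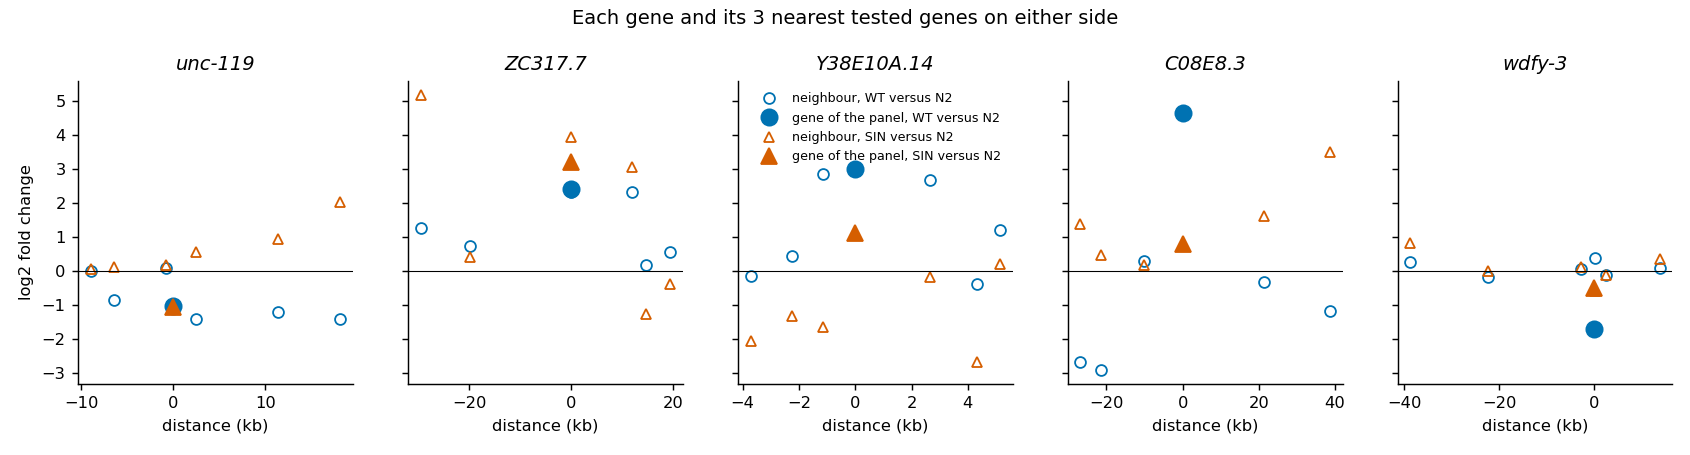
Log2 fold change of each of the 5 genes (filled symbols at 0) and of its 3 nearest tested genes on either side (open symbols), against the distance between the ends of the genes in kilobases. Circles are WT versus N2 and triangles SIN versus N2. Y51A2B.4, with no read in N2, is not drawn. C08E8.3 and wdfy-3 stand apart from the circles around them, whereas ZC317.6 and srg-65 beside ZC317.7, and nspe-7 and nspe-8 beside Y38E10A.14, have circles nearly as high as the gene itself. None of these neighbours was called by edgeR in WT versus N2. ZC317.6, srg-65 and nspe-8 were at 0.0989 CPM or less in N2, and nspe-7 was at 0.648 and 6.55 CPM there.

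Because unc-119 is expressed throughout the nervous system, 25 neuronal genes were set beside it. Their summed level was 519 to 546 CPM in N2, 526 to 548 CPM in WT and 516 to 546 CPM in SIN. The sums of the strains thus overlapped, unlike the level of unc-119. Per gene SIN was higher. The mean log2 level, each tested gene relative to its own mean over the 6 libraries, was 0.174 and 0.236 in SIN, 0.0111 and -0.146 in N2 and -0.128 and -0.147 in WT. Of the 24 tested, edgeR called none in WT versus N2 (1 had an unadjusted p below 0.05, and DESeq2 called 0), with a median log2 fold change of -0.13 against -0.03 over all genes. In SIN versus N2, 9 of the 24 had an unadjusted p below 0.05, as had 6251 of all 15404 genes tested. The median there was 0.23 against -0.07. After adjustment 2 rose and 1 fell, 12.5% of the list against 25.6% of all genes. Those that rose were unc-31, needed for release of dense-core vesicles (7.38-fold, edgeR adjusted p = 0.000508), and cat-2, the tyrosine hydroxylase of dopamine neurons (3.23-fold, edgeR adjusted p = 0.0157). The ankyrin gene unc-44 fell 1.52-fold (edgeR adjusted p = 0.0402). Without N2 replicate 2, 3 rose and 3 fell, without N2 replicate 1 4 rose, and without SIN replicate 1 only 1 rose. Between WT and N2, 1 rose and 1 fell without N2 replicate 2.

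The list for ciliary transport of lipid-modified and other proteins, in which UNC-119 acts, had 24 of 25 members in the table and 23 tested. None was called by edgeR in WT versus N2 (4 had an unadjusted p below 0.05, and DESeq2 called 1 higher and 1 lower). The median was -0.4 there, but 0.06 without N2 replicate 1 and -0.65 without N2 replicate 2. Over all genes the median was -0.014 and -0.0066 in those fits. Between SIN and N2 none rose and 2 fell, 8.7% of the list against 25.6% of all genes, with a median of 0.52. With replicate number as a block 2 rose and 3 fell. The RFX factor gene daf-19, a regulator of ciliary genes, fell from 33.2 and 28.7 CPM in N2 to 18.8 and 14.5 CPM in SIN (1.86-fold, edgeR adjusted p = 0.0144). The kinesin gene osm-3 fell 1.84-fold (edgeR adjusted p = 0.0289), from 5.97 and 6.23 CPM to 3.32 and 3.29 CPM. The list median in SIN versus N2 was 0.77 without N2 replicate 1 and 0.2 without N2 replicate 2. Over all genes it was -0.03 and -0.02 in those fits. With upper-quartile scaling 1 of the list was called as higher and 2 as lower in SIN versus N2. Leaving out any one WT library, or SIN replicate 1, left 1 that fell, and leaving out SIN replicate 2 left none. The summed level was 72.2 to 81.3 CPM in N2, 74.3 to 74.7 CPM in WT and 55.1 to 65.9 CPM in SIN. The gene daf-19 made up a large part of it. Per gene the order differed. The mean log2 level, each tested gene relative to its own mean over the 6 libraries, was 0.486 and 0.292 in SIN, 0.286 and -0.27 in N2 and -0.394 and -0.402 in WT. In SIN versus WT 5 rose and 2 fell, 30.4% of the list against 25.5% of all genes, with a median of 0.72. That count was lower without any one WT or SIN library.

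For wdfy-3, the autophagy list had 27 of 28 members, all tested. In WT versus N2, where wdfy-3 was lowest, edgeR called none of them (6 had an unadjusted p below 0.05, and DESeq2 called 2 higher and 2 lower), and their median log2 fold change was -0.18. That median was 0.00135 without N2 replicate 1 and -0.3 without N2 replicate 2, against -0.014 and -0.0066 over all genes. With no filter on low counts 2 of the list were called as higher and 5 as lower, and 2217 of all 24486 genes were called. In SIN versus N2, 2 rose and 8 fell, 37% of the list against 25.6% of all genes, with a median of -0.25 against -0.07 over all genes. The beclin gene bec-1 rose from 58 and 57.9 CPM in N2 to 150 and 129 CPM in SIN (2.41-fold, edgeR adjusted p = 0.000831). The related genes atg-16.1 and atg-16.2, whose products help to lipidate the autophagosome protein LGG-1, fell 1.94-fold and 1.74-fold (edgeR adjusted p = 0.00703 and 0.0114). The scaffold gene epg-7, named atg-11 in the table, fell 1.62-fold (edgeR adjusted p = 0.0236). With RLE or upper-quartile scaling 2 rose and 6 fell, and without N2 replicate 2 there were 2 and 16. Leaving out either WT library left 1 that rose and 2 that fell, and leaving out either SIN library left 1 and none.

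Of 5 relatives with a BEACH or FYVE domain or a partner role in endosomes, edgeR and DESeq2 called none in WT versus N2. With edgeR 1 had an unadjusted p below 0.05. Their median log2 fold change there was -0.15, with -0.08 without N2 replicate 1 and -0.21 without N2 replicate 2. Between SIN and N2, 3 of 5 were called, against 25.6% of all genes: the FYVE gene wdfy-2 fell 1.53-fold (edgeR adjusted p = 0.0047), the FYVE gene aka-1 fell 1.42-fold (edgeR adjusted p = 0.0115) and eea-1, for an early endosome tether, rose 2.03-fold (edgeR adjusted p = 0.0054). The other BEACH genes, sel-2 and lyst-1, were not called there.

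Markers of other cell types were read beside the 5 genes. For the germline list of 12 genes, the sum was 6897 to 6934 CPM in N2, 7640 to 7826 CPM in WT and 7920 to 8001 CPM in SIN, and no strain overlapped another. The place of SIN in that order rested on glh-1: without it, a calculation added after seeing the data, the sum was 6534 to 6637 CPM in N2, 7091 to 7312 CPM in WT and 6237 to 6439 CPM in SIN, so that SIN was lowest. Between SIN and N2, 5 of the 12 rose and 3 fell, 66.7% of the list against 25.6% of all genes, with a median log2 fold change of 0.01. Between SIN and WT, 4 rose and 5 fell, 75% of the list against 25.5% of all genes. The median there was -0.22, against 0.04 over all genes. With upper-quartile scaling 5 rose and 1 fell, and the calls also changed without any one WT or SIN library. In WT versus N2 edgeR called none (5 had an unadjusted p below 0.05, and DESeq2 called 5 as higher), but 3 were called as higher without N2 replicate 1 and 5 without N2 replicate 2. Without any one of the WT or SIN libraries, none of the list was called as lower in SIN versus N2. The helicase gene glh-1 had 297 and 364 CPM in N2, with 514 and 549 in WT and 1480 and 1764 in SIN, a 4.91-fold rise in SIN over N2 (edgeR adjusted p = 0.000355). The genes glh-2, htp-3 and him-3 rose 2.27-fold, 1.82-fold and 1.7-fold in SIN over N2 (edgeR adjusted p = 0.000423, 0.00139 and 0.00179). The part of these germline differences in the levels of ZC317.7 and Y38E10A.14 was not tested.

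The 10 sperm genes listed summed to 10.4 to 12.3 CPM in N2, 15.8 to 22.3 CPM in WT and 71.2 to 71.7 CPM in SIN, and msd-1 had no read in any library. Most of this sum was spe-15, at 8.99 and 7.59 CPM in N2, 14.26 and 17.25 in WT and 56.7 and 48 in SIN. The mean log2 level, each tested gene relative to its own mean, was -1.28 and -0.884 in N2 and -1.44 and -0.071 in WT, which overlapped. It was 1.57 and 2.11 in SIN. Of 8 tested, 4 rose and none fell in SIN versus N2, 50.0% of the list against 25.6% of all genes (median 2.82): spe-15 (6.31-fold), fer-1 (4.07-fold), spe-26 (2.56-fold) and ssp-16 (18.6-fold), with edgeR adjusted p of 0.000376, 0.0318, 0.0396 and 0.0431. Without either WT library 2 rose, and without either SIN library 1 rose. With no filter on low counts 8 rose, and with the replicate block or DESeq2 7 rose. None of the 8 was called in WT versus N2 by edgeR (2 had an unadjusted p below 0.05, and DESeq2 called 1 higher and 1 lower), but 1 was higher without N2 replicate 1, and 1 was higher and 1 lower without N2 replicate 2. The sums of the intestinal list (46390 to 51540 CPM in N2, 40730 to 42220 CPM in WT, 43360 to 53940 CPM in SIN), the body wall muscle list (2852 to 5623 CPM in N2, 4255 to 4796 CPM in WT, 3092 to 4503 CPM in SIN) and the epidermal list (576 to 1410 CPM in N2, 942 to 1311 CPM in WT, 503 to 890 CPM in SIN) overlapped between N2 and SIN, and the intestinal sum was lower in both WT libraries than in both N2 libraries.

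Among single genes of these last 3 lists, edgeR called 8.33% of the intestinal, 0 of the 10 muscle and 2 of the 8 epidermal genes in SIN versus N2, against 25.6% of all genes. The intestinal vit-4 fell 1.31-fold in SIN versus N2 (edgeR adjusted p = 0.0453), but was not called with RLE or upper-quartile scaling. None of the muscle list had an unadjusted p below 0.05, and DESeq2 called 0, but with no filter on low counts edgeR called 2 as lower. In the epidermal list nhr-23, a nuclear receptor of the moulting cycle, rose 1.69-fold (edgeR adjusted p = 0.00224) and lin-26, an epidermal fate factor, fell 1.33-fold (edgeR adjusted p = 0.0296). In WT versus N2 edgeR called none of the 3 lists (1 intestinal, 0 muscle and 3 epidermal genes had an unadjusted p below 0.05, and DESeq2 called 2 epidermal genes as lower). Without N2 replicate 2 the median log2 fold change in WT versus N2 was -0.32 (intestinal) and -1.09 (epidermal). The epidermal median in SIN versus N2 was then -1.16. Over all genes the median in that fit was -0.0066 in WT versus N2 and -0.024 in SIN versus N2. Without N2 replicate 1 the same list medians were -0.16, -0.395 and -0.202.

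**Figure D4:**
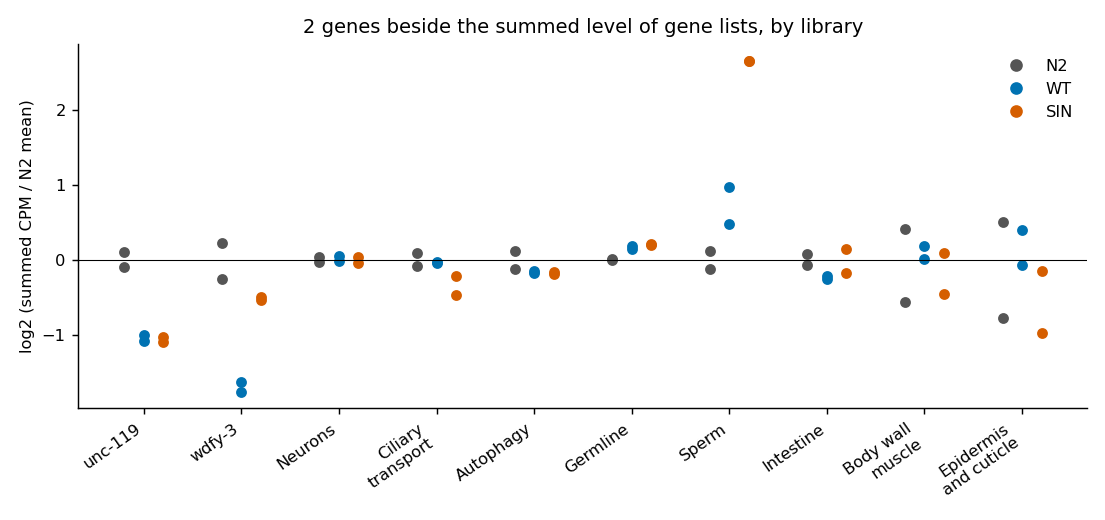
Level of unc-119, wdfy-3 and the summed CPM of 8 gene lists in each library, as log2 of the ratio to the N2 mean. Grey, blue and orange points are the N2, WT and SIN libraries. The neuronal sum stays near 0 in all 6 libraries while unc-119 lies near -1 in the 4 transgenic ones, and the sperm sum is highest in SIN.

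To place each of the 5 among all genes, the 3 genes with the nearest profile were found by the Euclidean distance between log2 CPM values over the 6 libraries, each gene centred on its own mean, among 11636 other genes with a mean of at least 1 CPM. The nearest to unc-119 were cnp-3 (distance 0.182), grh-1 (0.257) and Y62F5A.10 (0.303). The most alike, cnp-3, had 96.3 and 75.6 CPM in N2, with 42 and 41.9 in WT and 42.9 and 46.2 in SIN. It lies on chromosome X. The nearest to wdfy-3 were closer still for mltn-1 (0.123) and C10C5.5 (0.143), with ZK430.5 (0.41) next. The gene mltn-1 had 4.86 and 3.69 CPM in N2, with 1.37 and 1.14 in WT and 2.87 and 2.93 in SIN.

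The nearest genes lay farther off for the 3 genes that were higher in WT. The nearest to ZC317.7 were pme-4 (0.72), a gene for an enzyme that removes poly(ADP-ribose), F49F1.1 (0.726) and the lysozyme gene lys-3 (0.867). The nearest to Y38E10A.14 were the choline kinase gene ckb-2 (1.59), the glycosyltransferase gene ugt-64 (1.6) and the C-type lectin gene clec-52 (1.62). ugt-64 had 16.5 and 18.9 CPM in N2, with 66.6 and 59.9 in WT and 50 and 45 in SIN, so it was high in both transgenic strains, while ckb-2 was at 19.2 and 26.1 CPM in N2, with 54.8 and 105 in WT and 24 and 22.3 in SIN, high in WT alone. The gene nearest to C08E8.3 was Y38E10A.14 itself (1.92), followed by nspe-7 (2.1), which adjoins Y38E10A.14, and ckb-2 (2.64). C08E8.3 and Y38E10A.14 were both chosen by their shifts in these same libraries, and C08E8.3 passed the low-count filter only through WT. Their nearness is therefore a description only.

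**Figure D5:**
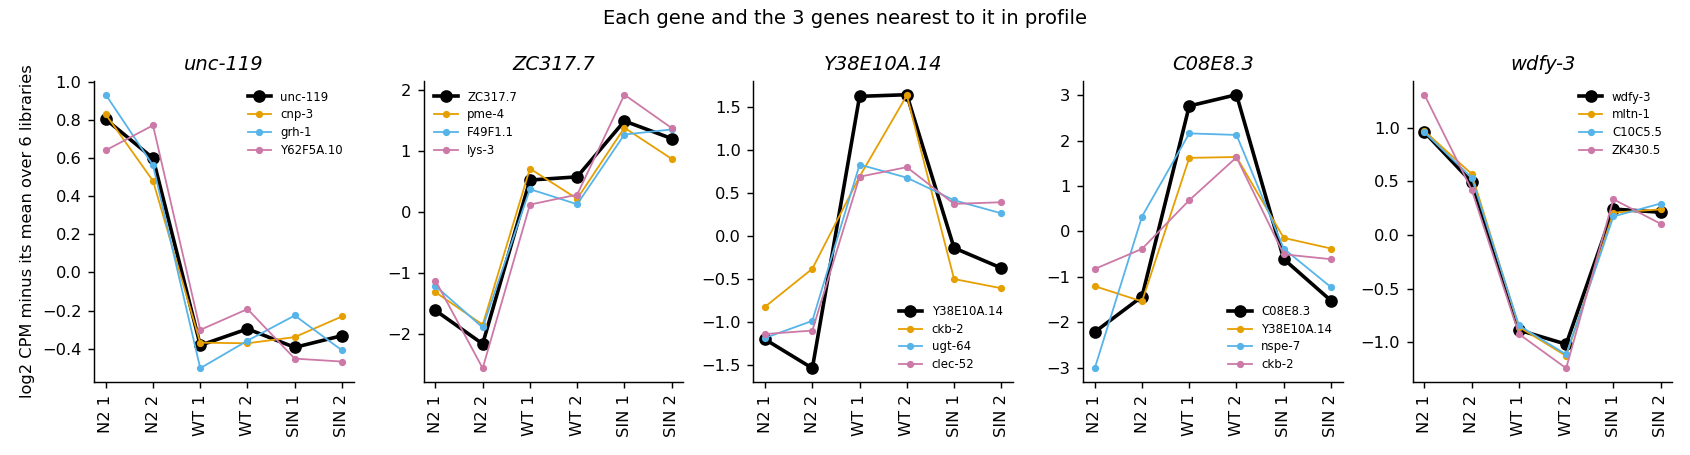
Profile of each of the 5 genes (black) and of its 3 nearest genes (colours) over the 6 libraries, as log2 CPM without a prior count minus the gene's own mean. The lines nearly coincide for unc-119 and wdfy-3, and spread apart for Y38E10A.14 and C08E8.3.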

How the data were processed

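Poly(A)-selected, strand-specific RNA libraries from 500 ng of total RNA (integrity number 7.9 to 8.9) were read as 50-base single ends, per the labels' protocols. The authors deposited raw read counts per gene and library. Per the file headers, they also deposited group RPKM, log2 fold changes and adjusted p-values for SIN against WT, and, from other studies, a 22G score, RPM of 22G RNAs, an enrichment fraction and gene classes. RPKM equalled the mean of library values recomputed from the deposited counts in 100% of genes (relative tolerance 1e-06). STAR, HTSeq, DESeq, DESeq2 and WBcel235 are named in the submitters' processing notes. Neither the strand setting nor the annotation release used for counting is stated in the sources.

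Counts were fitted with edgeR 4.0.16 (R 4.3.3; quasi-likelihood, robust, TMM scaling, filterByExpr with a minimum count of 10 and a total of 15), with all 6 libraries and 3 group means, leaving 3 residual degrees of freedom. The biological coefficient of variation was 0.219. The SE given is the size of the log2 fold change over the root of its F statistic. The filter removed at most 0.0476% of a library's counts. Exact 95% counting intervals are given for ratios of reads. Replicate libraries differed by more than sampling noise. The chi-square per degree of freedom was 134.3 in N2, 31.05 in SIN and 9.53 in WT. N2, the strain from which the shifts are measured, thus had the least similar pair of libraries. The script was tested on simulated data.

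The 5 genes and the lists were chosen with earlier results of these data known. Named besides them were neighbours called in at least 1 comparison, the 3 nearest profiles, and up to 4 called genes per list by smallest p. Neighbours named without a call were chosen after their values were seen. The alternatives tried were DESeq2 1.42.0, 2 other scalings, no filter, only the compared groups, a replicate block and leaving out each library.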

Additional observations from a re-analysis of the deposited data

How the results depend on the processing

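In 179 refitted values of the 5 genes no fold moved by over 1.5 times, and 175 moved by less than the spread between libraries; the 3 changes of sign were all of unc-119 in SIN versus WT, near 0. The counts over all genes moved more. In WT versus N2, 17 genes were called, against 29 with RLE scaling, 10 with upper-quartile scaling, 2217 with no filter, 1164 with DESeq2, 253 with the replicate block and 0 with only N2 and WT; leaving out 1 library gave 0 to 4201. In SIN versus N2, 3942 were called, against 5922 with no filter and 1914 with only those groups; leaving out 1 library gave 704 to 6028. In SIN versus WT, 3922 were called, against 6521 with only those groups; leaving out 1 library gave 361 to 6751. The cause of these movements was not tested. Upper-quartile scaling shifted the median over all genes (log2) for SIN versus WT from 0.04 to 0.17 and the share of rises from 47.7% to 65.5%; in SIN versus N2 the share of rises went from 48.2% to 59.6%. C08E8.3 has no value in SIN versus N2 with only those groups. Among the 5 genes, unc-119 was called in WT versus N2 with the replicate block, DESeq2 and no filter. The wdfy-3 gene was called in SIN versus N2 with the same 3. For both genes the call also changed when an N2 library was left out. With upper-quartile scaling C08E8.3, ZC317.7 and wdfy-3 were no longer called in WT versus N2. The 4 genes of the 5 that were called in WT versus N2 lost the call with only N2 and WT, and without any one WT or SIN library. In SIN versus N2, unc-119 lost it without SIN replicate 1 or 2 and Y38E10A.14 without SIN replicate 1. In SIN versus WT, ZC317.7 and wdfy-3 lost it without any one WT or SIN library. The labels do not say what a shared replicate number stands for, and 2 pairs do not settle it. With the replicate block, 4907 genes were called in SIN versus N2 and 4898 in SIN versus WT, and the differences between replicates 1 and 2 correlated across genes at 0.236 (N2 and WT), 0.377 (N2 and SIN) and 0.344 (WT and SIN). With 10 reads in N2 and 16 in SIN, depth limits what can be said of C08E8.3 in those strains.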
